A study of Mus musculus with 8 samples.

Results

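Serpins and plasminogen activators were followed in FAPs (fibro/adipogenic progenitors, muscle-resident stromal cells that carry PDGFRα) through 5 genes: the serpins Serpina3n, Serpine2 and Serpinf1 and the plasminogen activators Plau and Plat. The genes were picked by name from the 31053 genes of the deposited matrices, with earlier results of the knockout and wild type comparison known, so their differences between the libraries are given as a description with no test. Cells were chosen by a rule that asked for at least 500 genes, at most 10% mitochondrial UMIs and at least 1 UMI of Pdgfra, which encodes the receptor used in the sort. A UMI (unique molecular identifier) marks 1 captured transcript. The rule kept 1533 of 2073 wild type barcodes and 1435 of 1724 knockout barcodes.

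Female mice 8 months of age gave the hindlimb muscles. One group was wild type, with the strain given as C57BL/6, and the other dysferlin knockout, with the strain given as BLA/J. The protocol text spells the knockout strain differently, so it is called the dysferlin knockout here. No treatment is given for either group. Dysferlin is a membrane repair protein of muscle fibres, and its loss causes a muscular dystrophy in which muscle is replaced by fat. Live cells positive for PDGFRα were sorted and sequenced with the droplet-based 10x 3′ kit, version 3. The labels give 4 samples in each group, but each group was deposited as 1 matrix with no map from barcodes to samples. Each matrix is therefore 1 library, no comparison has a replicate check, and an effect of genotype cannot be told apart from one of strain or of library preparation.

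Plasminogen activators are serine proteases that cut plasminogen into plasmin, a broad protease that dissolves fibrin and loosens the extracellular matrix. Plau encodes urokinase, which works at the cell surface on its receptor, and Plat encodes tissue plasminogen activator. Serpins are suicide substrates: the target protease cuts an exposed loop of the serpin and stays bound to it. In muscle the urokinase system is known for its part in clearing fibrin and in regeneration after injury.

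The kept cells held 14420247 UMIs in the wild type library and 19170199 in the knockout library, with medians of 9177 and 12717 UMIs per cell. Levels are given as CPM, the UMIs of a gene in every 1000000 UMIs of the kept cells. Each transcript yields 1 tag near its 3′ end, so CPM does not scale with transcript length. Intervals are 95% intervals and cover counting error only. Pdgfra stood at 494 CPM in wild type and 490 CPM in knockout cells, and all 10 FAP markers had a mean of at least 20 CPM. They were not all level between the libraries: Col3a1 stood at 4357 and 10961 CPM, Col1a1 at 2274 and 4498 CPM, and Gsn at 28233 and 15427 CPM. Dysf had 9 and 14 UMIs, a log2 ratio of 0.23 (interval -1.08 to 1.62), and 3′ tags of this gene do not check the genotype. The 13 leukocyte markers summed to 7.21 CPM in wild type and 81.9 CPM in knockout cells. Lyz2 held 1052 of the 1570 leukocyte marker UMIs of the knockout cells. Cd3e was at 0 in both libraries, and Ptprc and Nkg7 were at 0 in wild type. The tenocyte markers summed to 599 and 978 CPM, the endothelial markers to 110 and 76.2 CPM, and the mural, myogenic and Schwann cell markers to less than 50 CPM each in both libraries. Single genes held most of the first 2 sums: Thbs4 had 569 and 942 CPM of the tenocyte sum, and Tek 80.3 and 49.1 CPM of the endothelial sum. The other endothelial markers went both ways. Pecam1 (5.62 and 9.08 CPM), Cldn5 (2.08 and 4.23 CPM), Tie1, Lyve1 and Prox1 were higher in the knockout. Kdr (5.96 and 3.44 CPM), Cdh5 (3.12 and 1.30 CPM), Flt1, Egfl7, Emcn, Esam and Mmrn1 were lower. The part of these other cell types in the levels of the 5 genes was not tested; values for Serpina3n without cells that carry leukocyte markers are given with that gene.

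Among the 3 serpins, Serpina3n was much higher in the knockout cells, Serpine2 was somewhat lower and Serpinf1 was at nearly the same level. Serpina3n encodes a secreted inhibitor of leukocyte serine proteases such as granzyme B, and is induced in inflammation. Its promoter is shown because this gene had the largest difference of the 5, and those of the other serpins are shown for comparison. Sequences are the 250 bases upstream of the transcript start in RefSeq on GRCm38.p6 (mm10), read 5′ to 3′ on the gene's strand, with matches to a searched motif in capitals. The windows lie at chr12:104406458-104406707 on the plus strand for Serpina3n, at chr1:79858666-79858915 on the minus strand for Serpine2 and at chr11:75422624-75422873 on the minus strand for Serpinf1.
Serpina3n: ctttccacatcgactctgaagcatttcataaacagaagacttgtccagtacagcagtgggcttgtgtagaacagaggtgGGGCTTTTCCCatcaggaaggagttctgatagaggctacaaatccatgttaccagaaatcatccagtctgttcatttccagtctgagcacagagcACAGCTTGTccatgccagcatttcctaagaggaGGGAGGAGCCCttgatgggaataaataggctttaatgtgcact
Serpine2: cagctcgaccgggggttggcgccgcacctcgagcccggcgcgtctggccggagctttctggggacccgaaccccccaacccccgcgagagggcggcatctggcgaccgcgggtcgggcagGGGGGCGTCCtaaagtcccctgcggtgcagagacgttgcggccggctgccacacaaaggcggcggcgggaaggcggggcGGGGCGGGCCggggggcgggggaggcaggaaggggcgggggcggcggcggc
Serpinf1: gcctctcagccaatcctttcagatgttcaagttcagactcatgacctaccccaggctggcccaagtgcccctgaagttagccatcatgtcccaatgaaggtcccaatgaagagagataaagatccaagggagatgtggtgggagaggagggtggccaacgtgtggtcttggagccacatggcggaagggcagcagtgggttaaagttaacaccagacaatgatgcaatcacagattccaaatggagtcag
The motifs were searched on both strands: TTCNNNGAA (the palindrome of STAT sites), ACANNNTGT (the spacing of a steroid receptor palindrome), TGANTCA (AP-1), the NF-κB motif (GGG and CC parted by any 5 bases) and TATAAA. The Serpina3n window held 1 ACANNNTGT, with the letters ACAGCTTGT starting 76 bases upstream. This motif was found in 5.84% of the 32817 promoters in the table. The Serpina3n window also held 4 matches to the NF-κB motif, in overlapping pairs at 171 and 170 and at 43 and 42 bases upstream. The Serpine2 window held 2 matches to the NF-κB motif, 130 and 51 bases upstream, and 45.8% of all promoters held this motif. None of the 5 motifs was in the Serpinf1 window. TTCNNNGAA, TGANTCA and TATAAA were in none of the 3 windows, against 7.01%, 6.75% and 12.4% of all promoters. A match is a run of letters and not a measured binding site. The Serpine2 window lies inside the gene as GENCODE M21 places it, chr1:79794197-79861180. The Serpinf1 window overlaps its gene, chr11:75409769-75422701. RefSeq and GENCODE thus place these starts differently, and the matches hold for the RefSeq starts only.

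Serpina3n (ENSMUSG00000021091, chr12:104406729-104414329, plus strand) had 431 UMIs in wild type cells (interval 391 to 474) and 3677 in knockout cells (3559 to 3798). This was 29.9 CPM in wild type and 192 CPM in knockout. The knockout level was 6.42-fold higher, or 2.68 on the log2 scale (interval 2.54 to 2.83). Of the 5933 genes with a mean of at least 20 CPM, the knockout level was 2-fold or more above wild type for 105 genes (1.77%) and 2-fold or more below it for 60 (1.01%). Serpina3n was the only member past 2-fold, and since that contrast chose the members nothing is read from the count. It ranked 8 of 5933 from the highest ratio. Cells with 0 UMIs over the leukocyte markers, 1438 wild type and 1275 knockout cells, gave a log2 ratio of 2.77. Without cluster 9, the knockout cells led by the mast cell protease genes Cma1 and Mcpt4, it was 2.67. The other 9 Serpina3 genes together had 124 wild type and 158 knockout UMIs, or 8.60 and 8.24 CPM. That sum hides differences among them, seen after the values were known: Serpina3c had 121 and 103 UMIs, Serpina3f 0 and 28, and Serpina3g 0 and 19. Of the 50-base words in the last 500 bases of its transcripts, Serpina3n shared 0 with these or other genes.

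Serpine2 (ENSMUSG00000026249, chr1:79794197-79861180, minus strand) encodes protease nexin-1, an inhibitor of thrombin, urokinase, tissue plasminogen activator and plasmin. It had 2700 wild type and 2751 knockout UMIs, or 187 and 144 CPM. The log2 ratio was -0.38 (interval -0.46 to -0.31), a level 1.30-fold lower in the knockout library, although its median over clusters was 0.02, as described with the clusters. Serpinf1 (ENSMUSG00000000753, chr11:75409769-75422701, minus strand) encodes pigment epithelium-derived factor, a secreted serpin without protease inhibitor activity that acts on blood vessels and adipose tissue. It was the most abundant member, with 27077 wild type and 34921 knockout UMIs. Its levels were 1878 and 1822 CPM, a log2 ratio of -0.04 (interval -0.07 to -0.02). With so many UMIs the counting interval is narrow, and it does not cover the spread between animals or preparations.

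Both activators were higher in the knockout library by less than 1.5-fold. Plau (ENSMUSG00000021822, chr14:20836660-20843385, plus strand) had 910 wild type and 1563 knockout UMIs, or 63.1 and 81.5 CPM. Its log2 ratio was 0.37 (interval 0.25 to 0.49). Plat (ENSMUSG00000031538, chr8:22757727-22782844, plus strand) had 1722 wild type and 2782 knockout UMIs, or 119 and 145 CPM. Its log2 ratio was 0.28 (interval 0.19 to 0.37). Of the 5933 genes, 91.3% lay within 1.5-fold, and the median log2 ratio was 0.05. In this wide range lay 4 of the 5 members. From the highest ratio, Plau ranked 732, Plat 1084, Serpinf1 3882 and Serpine2 5517.

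**Figure D1:**
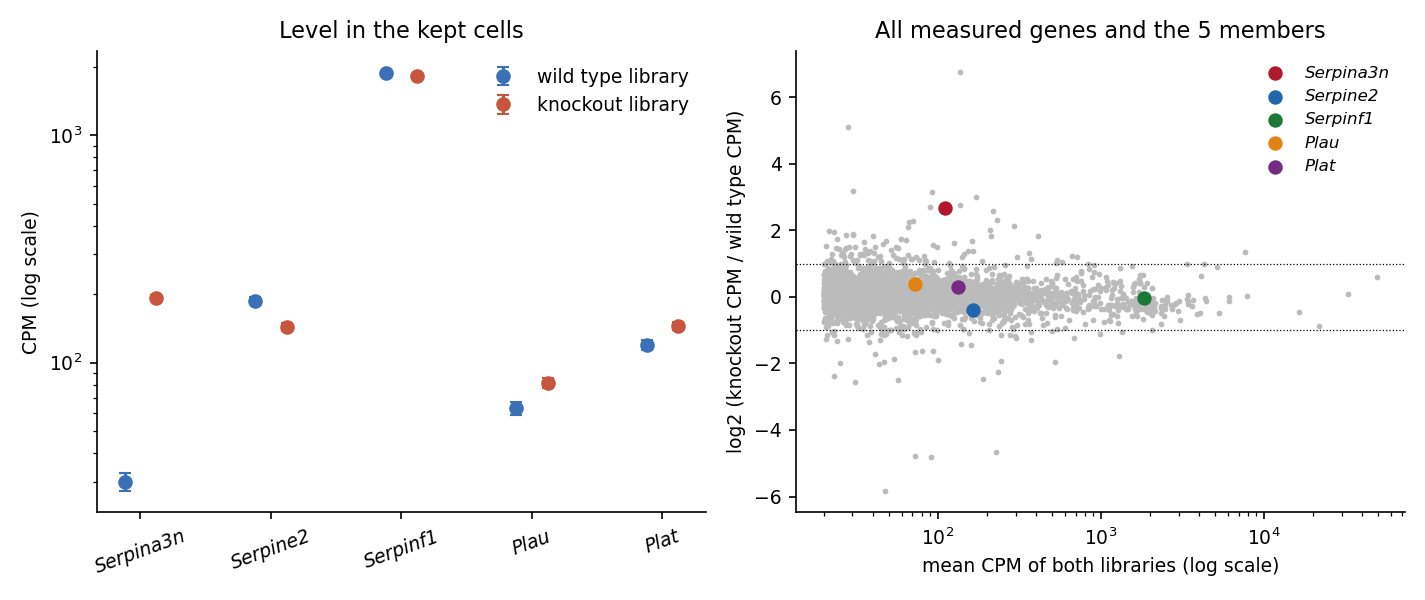
Left, level of each gene in the kept cells of each library in CPM on a log axis, with 95% Poisson intervals of the UMI sum. Right, log2 ratio of knockout over wild type against the mean CPM of both libraries on a log axis for 5933 genes in grey, with the 5 genes in colour and dotted lines at 2-fold; Serpina3n lies at 2.68 and the other 4 lie between -0.38 and 0.37.

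Serpina3n was seen in few wild type cells and in many knockout cells. As deposited, 13.2% of wild type cells (202 cells) and 56.0% of knockout cells (803 cells) had at least 1 UMI. Knockout cells held more UMIs at the median, so each cell was also thinned to 3000 UMIs, which left 1419 wild type and 1366 knockout cells and dropped 114 and 69 shallower ones. After thinning the shares were 5.78% (interval 4.62 to 7.12) and 28.6% (26.2 to 31.0). At matched depth the intervals of these shares did not overlap, but they leave out the spread between animals and preparations. If the UMIs had been spread evenly over cells, 7.26% and 38.5% of cells would have had 1. Both observed shares lay below these values, so the transcripts were gathered in some of the cells in both libraries.

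The other members differed less in detection. Serpine2 was found in 59.5% of wild type and 60.8% of knockout cells as deposited. After thinning it was found in 34.7% (interval 32.3 to 37.3) and 30.1% (27.7 to 32.6). The order of the libraries thus turned at matched depth, with intervals that still overlapped. Serpinf1 was found in 98.6% and 98.2% of cells, and in 97.5% and 96.1% after thinning. It was the one member detected in nearly every cell. Plau was found in 36.1% and 52.3% of cells, and in 16.6% and 21.1% after thinning. Plat was found in 51.1% and 64.5% of cells, and in 24.8% and 31.1% after thinning. Thinning lowers every share, so gaps in percent before and after it are not compared. The log2 ratio of the levels was 0.37 before and 0.37 after thinning for Plau, and 0.28 and 0.37 for Plat.

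Free RNA was read from barcodes that passed the gene and mitochondrial limits, had 0 Pdgfra UMIs and held at least 5 leukocyte marker UMIs. There were 12 such barcodes in the wild type library (median 4373.5 UMIs) and 8 in the knockout library (median 9536.5 UMIs). Serpina3n had 0 UMIs in these barcodes in both libraries, which allows a share of up to 25% and 37.5%. Plat also had 0 in both. Serpinf1, found in nearly all kept cells, had 1 UMI in 1 wild type barcode and 1 UMI in 1 knockout barcode. Serpine2 likewise had 1 UMI in 1 barcode of each library, and Plau had 0 in wild type and 1 UMI in the knockout. The barcodes are too few for a close limit on Serpina3n. Barcodes with endothelial markers and 0 Pdgfra UMIs held more Serpinf1, with 102 UMIs in 6 of 38 wild type barcodes (436 CPM) and 2 UMIs in 2 of 5 knockout barcodes.

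**Figure D2:**
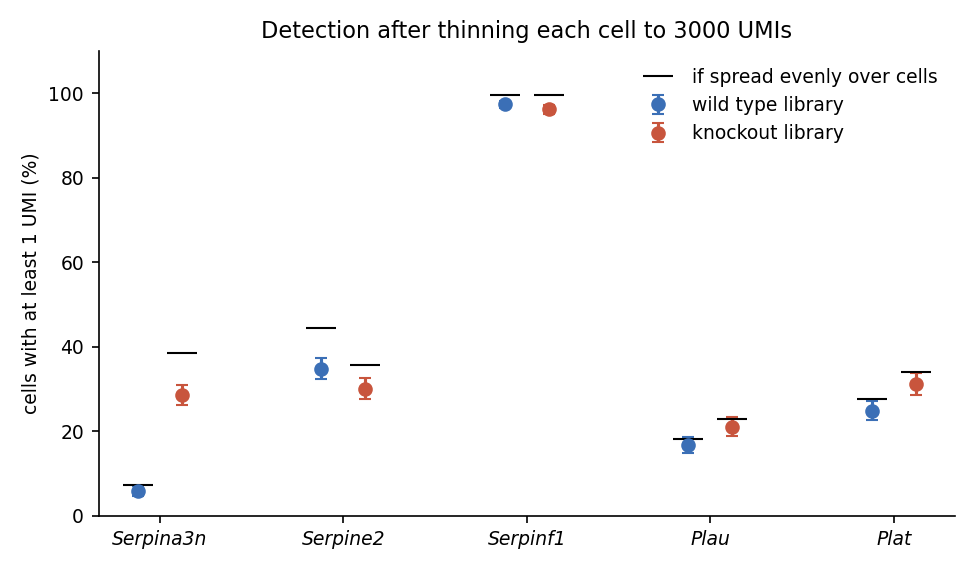
Share of cells with at least 1 UMI of each gene after thinning each cell to 3000 UMIs, with 95% Clopper-Pearson intervals, for 1419 wild type and 1366 knockout cells. Black lines give the share if the UMIs were spread evenly over cells; Serpina3n is at 5.78% in wild type and 28.6% in knockout cells, and Serpinf1 is above 96% in both libraries.

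Serpina3n was the most uneven member over cells: the 10% of cells with the most UMIs per 10000 held 88.2% of its wild type UMIs and 49.1% of its knockout UMIs. Such a share also rises where few cells have a UMI, and 13.2% of wild type and 56.0% of knockout cells had 1. The coefficient of variation of Serpina3n beyond counting error was 3.58 in wild type and 1.44 in knockout cells. Cells with a Serpina3n UMI held on average 2.13 UMIs of it in wild type and 4.58 in knockout, at median depths of 10419.5 and 14928 UMIs. Serpinf1 was the most even, with 20.2% and 18.2% of its UMIs in the top 10% of cells and a coefficient of variation of 0.456 and 0.459. Serpine2, Plau and Plat lay between, with coefficients of 1.08, 0.944 and 0.726 in wild type and 1.24, 0.805 and 0.889 in knockout cells.

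The Serpina3n difference was seen on both sides of the Pdgfra threshold. Barcodes just outside it, with 0 Pdgfra UMIs, had 36.6 CPM of Serpina3n in wild type (264 barcodes) and 145 CPM in knockout (149 barcodes). Cells just inside it, with 1 Pdgfra UMI, had 25.1 and 158 CPM. Cells with 2 or more had 30.5 and 194 CPM. Plau had 36.6 and 64.9 CPM in barcodes with 0 Pdgfra UMIs and 50.3 and 76.1 CPM in cells with 1. Serpine2 was the member whose order turned across the threshold, with 98.0 CPM in wild type and 129 CPM in knockout barcodes with 0 Pdgfra UMIs, against 190 and 111 CPM in cells with 1.

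To compare like cells, the cells of both libraries were clustered together without the 5 genes, the other genes of the plasminogen system and the other serpins. Of 12 clusters, 8 had at least 25 cells of each library. These held 1464 wild type cells (95.5%) and 1086 knockout cells (75.7%). They are called by number and leading genes, not by cell type. The libraries differed in makeup: cluster 0, led by C1qtnf3, Thbs4, Mfap4 and Postn, had 56 wild type and 472 knockout cells, while cluster 6, led by Btg2, Nfkbiz, Inhbb and Bmp2, had 236 and 26. Cluster 5, led by Cxcl9, S1pr3, Ccl7 and Smc4, had 12 and 300 cells, and cluster 9 had 0 and 47, so neither was compared.

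Serpina3n was higher in the knockout library in 8 of 8 shared clusters, by a median log2 ratio of 1.82. That median lies below the 2.68 found over all cells. The difference was largest in cluster 1, led by Car8, Dact2, Wnt10b and Cmah, with 15.3 CPM in 248 wild type cells and 275 CPM in 180 knockout cells. The log2 ratio there was 4.16 (interval 3.70 to 4.66). After thinning, 4.60% of wild type and 37.8% of knockout cells of cluster 1 had a Serpina3n UMI. It was smallest in cluster 3, led by Klf5, Cpe, Clu and Arhgdib, with 34.4 and 45.2 CPM and a log2 ratio of 0.39 whose interval, -0.19 to 0.96, spans 0. Cluster 7, led by C7, Gdf10, Abcc9 and Fmo2, had the highest wild type level, 104 CPM, and reached 167 CPM in the knockout. Cluster 4, led by Sorl1, Nrxn2, Kcna2 and Hsd11b1, had the lowest wild type level, 6.42 CPM, and reached 50.3 CPM. The order of the clusters was not kept between the libraries: over the 8 clusters Pearson's r of the log2 levels was 0.30 and Spearman's rho 0.24, given as a description.

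Most of the knockout Serpina3n UMIs came from clusters that were few or absent in wild type, but these clusters also held most knockout cells. Cluster 0 held 45.2% of these UMIs at 226 CPM, cluster 5 held 21.9% at 195 CPM and cluster 9 held 4.95% at 235 CPM. The same clusters had 32.9%, 20.9% and 3.28% of the knockout cells, and the level over all knockout cells was 192 CPM. That overall level includes these clusters. In clusters 2, 3, 4, 6, 7 and 8 the knockout level lay lower, between 45.2 CPM in cluster 3 and 167 CPM in cluster 7. In cluster 1 it was 275 CPM, and cluster 1 held 19.2% of the knockout Serpina3n UMIs. With the wild type level in each shared cluster and the knockout's share of UMIs per cluster, the log2 ratio would be 0.21. With the knockout levels and the wild type shares it would be 2.13. Over the cells of the shared clusters the measured log2 ratio was 2.68.

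Serpine2 gave the opposite picture. It was higher in 4 and lower in 4 of the 8 shared clusters, with a median log2 ratio of 0.02, so the lower level in the knockout library as a whole did not recur within clusters. Cluster 3 had the highest Serpine2 level in both libraries, 439 CPM in wild type and 438 CPM in knockout. This cluster had 246 wild type and 96 knockout cells, and it held 30.7% of the wild type and 15.8% of the knockout Serpine2 UMIs. With wild type levels and the knockout's shares of UMIs the log2 ratio would be -0.28. With knockout levels and wild type shares it would be -0.03, and over the shared clusters' cells it was -0.31. Serpine2 was lowest in cluster 8, led by Kdr, 1500015O10Rik, Sfrp2 and Fmod, with 46.9 and 72.7 CPM. Over the 8 clusters the order was nearly the same in both libraries, with r of 0.93 and rho of 0.90.

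Serpinf1 was lower in the knockout in 6 of 8 shared clusters, with a median log2 ratio of -0.11. Its range over clusters was the narrowest of the 5. Cluster 8 had the highest levels, 3610 and 2676 CPM, and cluster 1 the lowest, 1403 and 1010 CPM. The Serpinf1 log2 ratio was -0.47 in cluster 1 (interval -0.55 to -0.40) and -0.43 in cluster 8 (interval -0.54 to -0.33). The Serpina3n log2 ratios of these clusters were far apart, 4.16 in cluster 1 and 0.62 in cluster 8.

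Plau was higher in the knockout in 7 of 8 shared clusters, with a median log2 ratio of 0.41. It was highest in cluster 4, with 128 and 167 CPM, and lowest in cluster 8 in wild type, 16.8 CPM, and in cluster 7 in knockout, 23.6 CPM. In cluster 1 it stood at 37.5 CPM in wild type and 89.3 CPM in knockout, a log2 ratio of 1.25 (interval 0.90 to 1.61). Plat was higher in 6 of 8, with a median of 0.16. It was highest in cluster 1, with 166 and 239 CPM, a log2 ratio of 0.53 (interval 0.35 to 0.71), and lowest in cluster 3, with 50.3 and 57.3 CPM. The clusters richest in Plau and in Plat thus differed, and both were the same clusters in both libraries. Over the 8 clusters r was 0.91 for Plau and 0.93 for Plat.

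**Figure D3:**
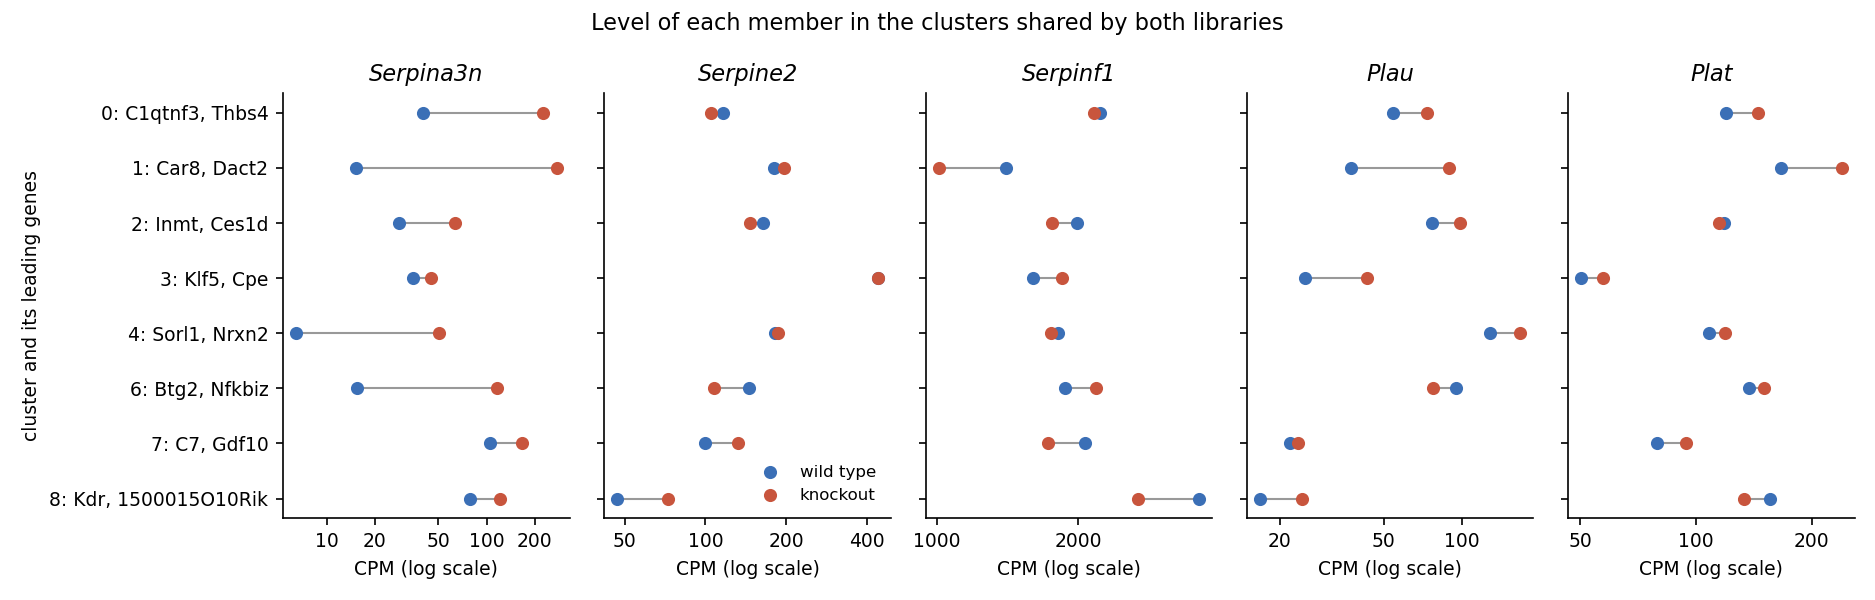
Level of each gene in CPM on a log axis in the 8 clusters with at least 25 cells of each library, blue for wild type and red for knockout, with a line joining the pair. Serpina3n is higher in the knockout in all 8, most in cluster 1 (15.3 and 275 CPM), while Serpine2 is near 439 CPM in cluster 3 of both libraries.

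Within cells the members showed only weak correlations with each other. Over the 10 pairs, Pearson's r of the log levels after thinning lay between -0.09 and 0.06 in wild type and between -0.07 and 0.03 in knockout cells. Correlations this weak in sparse counts are no finding, and they do not show that the members are unrelated. Plau and Plat were together in 3.95% of thinned wild type cells and 7.61% of thinned knockout cells, 0.957 and 1.16 times the share if they were independent. The pair furthest from its independent share was Serpina3n with Plau in wild type, together in 7 thinned cells or 0.513 times that share, with r of -0.13 as deposited and -0.05 after thinning.

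After thinning, 37.5% of wild type and 44.6% of knockout cells had a UMI of at least 1 of the activators, Plau or Plat. All 5 members were found together in 1.50% of wild type cells (23 cells) and 17.7% of knockout cells (254 cells) as deposited. After thinning those shares were 0.141% (2 cells) and 0.659% (9 cells). A cell with no UMI of a gene at 3000 UMIs may still express it, so these shares do not count the cells that express all 5.

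Other genes of the plasminogen system were mostly within 1.5-fold, with 3 of the 4 exceptions lower in the knockout. Of 36 listed genes besides the members, 16 had a mean of at least 20 CPM; in the knockout 1 was above wild type by 1.5-fold or more and 3 were below it by as much, with a median log2 ratio of -0.05. Of all 5933 genes, 301 (5.07%) were above by that fold and 213 (3.59%) below, with a median of 0.05. Plg, which encodes plasminogen itself and is made mainly in liver, was at 0 UMIs in either library, for limits of 0.208 and 0.156 CPM at 3 counts. Plaur, the urokinase receptor, was low, at 3.95 and 5.79 CPM. Lrp1, a receptor that takes up complexes of proteases with serpins, stood at 725 and 730 CPM. The plasminogen-binding partners S100a10 and Anxa2 were abundant, at 1373 and 949 CPM for S100a10 and at 934 and 861 CPM for Anxa2. F2r, the thrombin receptor, was the gene that was higher, at 21.8 and 36.3 CPM. The lower ones were Procr, the protein C receptor, at 86.2 and 45.5 CPM, Vldlr, another receptor for such complexes, at 116 and 67.7 CPM, and Eno1 at 43.5 and 22.6 CPM. Eno1 is uncertain, since 41.9% of its 3′ words are shared with near-identical copies.

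The list of proteins known to be cut or activated in the plasmin cascade had its differences of 1.5-fold or more on the higher side. Of 16 listed genes, 11 had a mean of at least 20 CPM; 5 lay 1.5-fold or more above wild type and 0 below, with a median log2 ratio of 0.44. The other 6 lay within 1.5-fold, some higher and some lower. Of all 5933 genes, 5.07% were above by that fold and 3.59% below. The list was chosen with earlier results of these data known, so nothing is read from the count. Mmp3, a matrix metalloprotease whose proenzyme plasmin activates, stood at 62.5 and 376 CPM, a log2 ratio of 2.59 (interval 2.49 to 2.69), ranking 9 of 5933, next below Serpina3n. Mmp14 stood at 175 and 341 CPM, and Mmp2 at 608 and 1090 CPM. Fn1, the matrix protein fibronectin, stood at 1065 and 2036 CPM. Thbs1, a matrix glycoprotein, stood at 90.4 and 145 CPM. Igfbp5, a growth factor binding protein, was nearly level, at 662 and 705 CPM.

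Of 58 other serpin genes, 6 passed the same level; 1 lay 1.5-fold or more above wild type and 0 below, with a median log2 ratio of 0.07. The one was Serpinb1a, an inhibitor of neutrophil proteases, at 32.4 and 54.7 CPM. The most abundant were Serping1, the C1 inhibitor, at 1639 and 1798 CPM, Serpinh1, the collagen chaperone, at 1096 and 1320 CPM, and Serpinb6a at 647 and 614 CPM.

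Serpina3n is known as an acute-phase gene downstream of STAT3, and genes of that kind lay on both sides. Of 22 listed, 12 passed the same level; 3 lay 1.5-fold or more above wild type and 3 below, with a median log2 ratio of 0.16. The higher ones were Steap4, a metalloreductase, at 147 and 266 CPM, the oncostatin M receptor Osmr at 48.4 and 76.2 CPM, and the complement component C3 at 1354 and 2122 CPM. The lower ones were the interleukin-6 receptor Il6ra at 63.5 and 25.6 CPM, the transcription factor Cebpd at 1834 and 882 CPM, and the feedback inhibitor Socs3 at 314 and 184 CPM. Lbp, which binds lipopolysaccharide, stood at 286 and 344 CPM.

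The genes whose levels followed each member most closely over cells were found among 2714 genes with at least 50 CPM in both libraries, ranked by the lower of the 2 libraries' Pearson's r. All points are cells of the same libraries and share their depth, and no p is given. For Serpina3n these were complement and immune genes first: C4b with r of 0.30 in both libraries, and Cfb with 0.21 in wild type and 0.29 in knockout cells. Tmem176a, Sfrp2 and C3 followed, with lower values of 0.17, 0.17 and 0.15. After thinning, r with C4b was 0.25 and 0.20, and r with Cfb was 0.09 and 0.14. Within clusters of at least 50 cells, r with C4b was above 0 in 8 of 8 wild type and 6 of 6 knockout clusters, with medians of 0.28 and 0.12. Both genes were also higher in the knockout library, C4b at 62.4 and 190 CPM and Cfb at 83.8 and 337 CPM. Their counts are uncertain, because C4b shares 23.9% of its 3′ words with C4a and Cfb shares 70.9% with the overlapping Gm20547.

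The sets of the other members were as follows. Serpinf1 followed abundant secreted-protein genes, with r in wild type and knockout cells of 0.37 and 0.44 for Pcolce, 0.33 and 0.52 for Dcn and 0.33 and 0.49 for Serping1, and with Itm2b and Rarres2 beside them. Plau followed Smoc2 (0.29 and 0.26) and the chemokine gene Ccl11 (0.28 and 0.26), then Col4a1, Hsd11b1 and Lamb1. Plat followed Anxa3 (0.28 and 0.26) and Fbn1, the microfibril protein fibrillin-1 (0.31 and 0.25), then Pla1a, Fn1 and Zyx. Serpine2 was led by Nov at 0.26 and 0.19 and Nbl1 at 0.18 in both, then Scara3, Khdrbs3 and Sparcl1. No gene was in the sets of 2 members. With 5 of 2714 genes in each set, sets picked at random would mostly share none, so nothing is read from this.

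**Figure D4:**
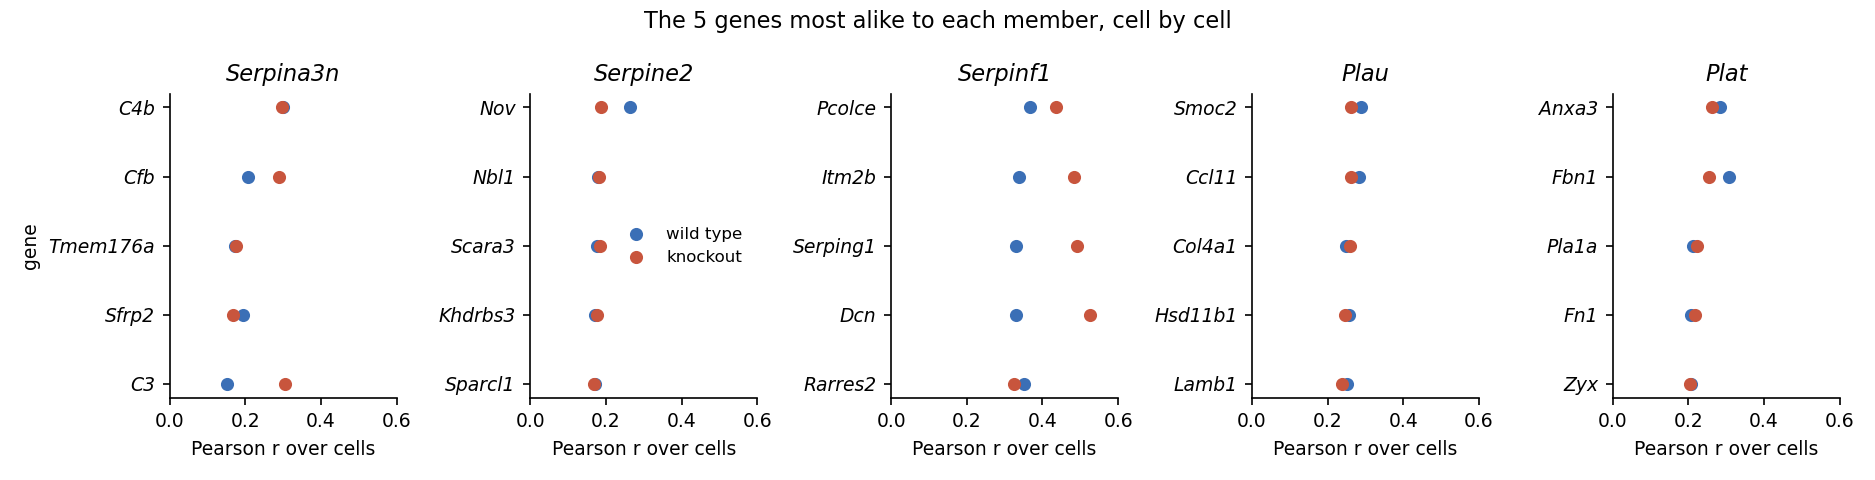
Pearson's r over cells between each gene and the 5 genes most alike to it, for 1533 wild type cells in blue and 1435 knockout cells in red, on log levels as deposited. Values lie between 0.15 and 0.52, highest for Serpinf1 with Dcn in the knockout cells.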

How the data were processed

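The deposited files hold raw UMI counts per gene and barcode; per the file headers they were made with software version 3.0.2. The submitters' processing notes list Cell Ranger 3.0.0, Seurat and mm10. What Seurat was used for, and how droplets without cells were removed, is not given in the sources. UMIs were summed over the kept cells of each library. UMI sums have exact Poisson intervals, ratios exact conditional binomial intervals and shares Clopper-Pearson intervals, for counting error alone. No test was run, as each group is 1 library. The limit for a count of 0 is 3 counts.

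Cells were clustered in scanpy 1.11.5 without integration (2000 variable genes, 30 components, 15 neighbours, Leiden resolution 0.8). Cluster 9 is the cluster led by Cma1, Mcpt4, Tpsb2 and Igkc. Doublets called by Scrublet, 4 in wild type and 6 in knockout, were kept. The libraries shared 13 barcode sequences. Intervals were tested on simulated Poisson counts, which hold counting error only and no spread between animals, preparations or cells. Gene coordinates are from GENCODE M21 on GRCm38, promoters from RefSeq, which matched 3 of the 5 members.

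The members and gene lists were chosen with earlier results of these data known. The text names the members, the 5 genes most alike to each, listed genes at least 1.5-fold apart or among the 3 most abundant of a list, Plaur, Plg and Lrp1, Pdgfra and Dysf, and the 4 genes leading each cluster described. 1 gene that this rule names is not reported here. Alternatives changed the Pdgfra and quality limits, doublets, weighting, scaling, depth and clustering.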

Additional observations from a re-analysis of the deposited data

How the results depend on the processing

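With 1 library per group, leaving out a replicate was not possible. No paired analysis was possible because the 4 numbered samples of each group are pooled in 1 matrix whose barcodes carry no sample number. Over 13 alternatives the ratio between the libraries, on the log2 scale, ranged from 1.82 to 2.77 for Serpina3n, from -0.44 to 0.02 for Serpine2, from -0.14 to -0.03 for Serpinf1, from 0.28 to 0.63 for Plau and from 0.05 to 0.37 for Plat. The direction of Serpine2 turned, to 0.0151 as the median over shared clusters and to 0.00875 at resolution 0.4. For Serpina3n those medians were 1.82 and 1.92. For Plat they were 0.161 and 0.0485, and for Plau the median at resolution 0.4 was 0.635. Serpinf1, whose interval is narrow, moved to -0.112 and -0.140 by those medians, to -0.0868 with scaling by trimmed mean of M values and to -0.0698 after thinning. The medians over shared clusters were planned. The 4 alternatives that weight shared clusters as in wild type, leave out cluster 3 or cluster 9, or leave out cells with leukocyte marker UMIs were chosen after seeing the data. Shared clusters weighted as in wild type gave 2.13 for Serpina3n, -0.0290 for Serpine2 and -0.0846 for Serpinf1. Without cluster 3, Serpine2 was at -0.229 and Serpinf1 at -0.0767, and without cluster 9 Serpinf1 was at -0.0692. Genes at least 2-fold higher numbered 54 with a mean of at least 50 CPM and 976 with at least 10 UMIs in all, and genes at least 2-fold lower 37 and 605. These filters change how many genes enter. For the other moved values the cause was not tested.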

Other observations

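Barcodes with 0 Pdgfra UMIs and endothelial markers, which lie outside the kept cells, also held Serpina3n: 11 UMIs in 3 of 38 wild type barcodes and 14 UMIs in 3 of 5 knockout barcodes. Serpinf1 had 102 UMIs in 6 of the 38 and 2 UMIs in 2 of the 5. Plat, a gene that endothelial cells are known to release as protein, had 14 UMIs in 5 of the 38 wild type barcodes and 0 in the 5 knockout barcodes. Genes of granzymes and related leukocyte proteases were low in the kept cells. How far the sort for PDGFRα removed the leukocytes that make them was not measured. The 11 listed granzyme and leukocyte protease genes summed to 5.96 CPM in wild type and 28.3 CPM in knockout cells, and none reached a mean of 20 CPM. Of the 543 knockout UMIs, Mcpt4 held 197, Cma1 166, Tpsb2 92 and Prtn3 75, the first 3 being mast cell proteases. Gzmb had 0 UMIs in wild type and 1 in knockout cells.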
